A study of Mus musculus with 21 samples.

Results

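Emx1, Emx2, Nr2f1, Nr2f2 and Lhx2, the transcription factors that set area identity in the cortical progenitor layer, were followed in embryonic mouse cortex carrying 3 different Pax6 alleles. The members were these 5 genes of 13850 tested, read through all probe sets annotated to them, 11 of the 45101 on the array. These comprised 2 for Emx1, 1 for Emx2, 1 for Nr2f1, 6 for Nr2f2 and 1 for Lhx2. RNA from rostral cerebral cortex at embryonic day 14 was hybridised to 21 arrays, 1 per sample. The Sey (Small-eye) groups, on C57BL/6J x DBA/2J (B6D2F1), held 4 mutants and 3 wild-type littermates. The Leca4 groups held 3 mutants and 4 wild-type littermates, and the Leca2 groups 4 mutants and 3 wild-type littermates, both on 129 S6. The labels do not say whether a mutant carried 1 or 2 mutated copies of Pax6, or whether the replicates of a number were littermates, and no group was treated. As inherited alleles, all 3 act in every cell that makes Pax6, so no group is a cortex-only model.

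In the dorsal telencephalon these factors are made by dividing progenitors in gradients across the cortical sheet. Pax6 is high rostrally and laterally, Emx2 is high caudally and medially, Nr2f1 (COUP-TFI) and Nr2f2 (COUP-TFII) are high caudally, and Lhx2 gives progenitors their cortical fate and restrains the hem at the medial edge. Loss of Emx2 enlarges rostral areas and loss of Pax6 enlarges caudal ones, and each of the 2 factors limits the other's gradient. Sey encodes a truncated Pax6 protein, whereas Leca4 and Leca2 carry point mutations in the PAI and RED subdomains, respectively, through which the paired domain of Pax6 holds DNA. The comparisons ask which of the area factors depend on Pax6 as a whole and which on either subdomain. Sey also differs from Leca4 and Leca2 in strain, so allele and strain cannot be told apart where Sey is set against either line.

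Promoter windows from RefSeq (mouse GRCm38.p6, from 250 bases before to 50 bases after the gene start) were found for all 5 factors. The windows of the gene pairs in which a factor and a transcript on the opposite strand were both measured are shown, because the results below turn on these pairs. In the Emx2 window (chr19:59458440-59458739, plus strand) the gene starts at position 251, and the opposite-strand RNA Emx2os, whose gene runs the other way, begins at position 196, so that 54 bases lie between the 2 genes. Capitals mark TAATTA, the letters that many homeodomain proteins bind, at positions 287 to 292. The Nr2f1 window (chr13:78198824-78199123, minus strand) holds none of the motifs searched. The window of A830082K12Rik (chr13:78197767-78198066, plus strand), a long non-coding RNA gene, lies inside the Nr2f1 gene.
Emx2: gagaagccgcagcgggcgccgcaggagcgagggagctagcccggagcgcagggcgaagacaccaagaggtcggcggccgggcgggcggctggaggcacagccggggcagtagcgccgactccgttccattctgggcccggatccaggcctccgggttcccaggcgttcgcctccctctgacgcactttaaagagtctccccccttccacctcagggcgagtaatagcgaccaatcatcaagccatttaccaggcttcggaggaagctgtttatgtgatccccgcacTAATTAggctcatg
Nr2f1: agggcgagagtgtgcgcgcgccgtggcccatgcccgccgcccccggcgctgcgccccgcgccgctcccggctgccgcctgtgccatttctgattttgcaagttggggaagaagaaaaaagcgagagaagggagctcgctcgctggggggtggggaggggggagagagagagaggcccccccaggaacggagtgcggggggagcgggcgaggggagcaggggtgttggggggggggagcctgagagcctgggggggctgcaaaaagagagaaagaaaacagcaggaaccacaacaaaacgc
A830082K12Rik: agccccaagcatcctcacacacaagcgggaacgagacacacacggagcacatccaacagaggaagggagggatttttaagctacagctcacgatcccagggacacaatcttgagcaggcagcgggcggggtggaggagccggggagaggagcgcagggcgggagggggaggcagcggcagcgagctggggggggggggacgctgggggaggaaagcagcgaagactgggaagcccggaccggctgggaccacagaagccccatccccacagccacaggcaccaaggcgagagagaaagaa

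On both strands TAATTA, which reads the same on each, AGGTCA, the letters of a nuclear receptor half-site, and TTCACGC, the core of the site bound by the Pax6 paired domain, were searched. TAATTA was found in the Emx2 window alone among those of the 5 factors and A830082K12Rik, and in 5.29% of 32851 windows of 300 bases. AGGTCA, present in 16.3% of all windows, and TTCACGC, present in 1.26%, were in none of these windows, which says only that the letters are not there. Guanine and cytosine made up 64.3% of the Emx2 window, 68.0% of the Nr2f1 window and 65.0% of the A830082K12Rik window, against a median of 52.7% over all windows.

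Values are log2 RMA expression values, so a difference of 1 is a 2-fold change. Pax6 RNA itself was higher in every mutant array than in every control array of its line, by 0.56 ± 0.09 (SE) in Sey, 0.49 ± 0.09 in Leca4 and 0.93 ± 0.09 in Leca2 (limma adjusted p = 0.000184, 0.00276 and 1.1e-05). The probe set does not tell mutated from intact RNA, so it does not check the labels. All 10 markers of radial glia, 6 of intermediate progenitors and 7 of projection neurons lay above the filter level on all arrays. Sex was read from Xist and Y-linked genes: 1 of 4 Sey mutants was male against 3 of 3 controls, 2 of 3 Leca4 mutants against 3 of 4, and 2 of 4 Leca2 mutants against 0 of 3. Median values ran from 6.03 to 6.07 in the Sey arrays, from 6.25 to 6.26 in the Leca4 arrays and from 6.12 to 6.18 in the Leca2 arrays, so each line had apparently been normalised on its own, and levels are not compared across lines. The p-values measure the spread between arrays that the labels call biological replicates.

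Of the 11 probe sets, 9 passed the filter on low values (above the 40th percentile of an array on at least 3 arrays), and all 5 genes were tested among 13850. In Sey mutants 3 of the 5 factors rose (Emx2, Nr2f2 and Lhx2) and none fell, where 20.2% of all genes were called, 10.7% up and 9.41% down. In Leca4 mutants Nr2f1 and Nr2f2 fell and none rose, where 5.62% of all genes were called, 3.39% up and 2.24% down. In Leca2 mutants none of the 5 was called, where 0.477% of all genes were called (0.173% up and 0.303% down), and 1 of 5 had an unadjusted limma p under 0.05. The median change of the 5 was 0.40 in Sey, -0.06 in Leca4 and -0.04 in Leca2, beside medians over all genes of -0.00025, 0.0060 and 0.0053. The median size of a change, regardless of sign, was 0.46, 0.35 and 0.06, beside 0.11, 0.079 and 0.055 over all genes.

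**Figure D1:**
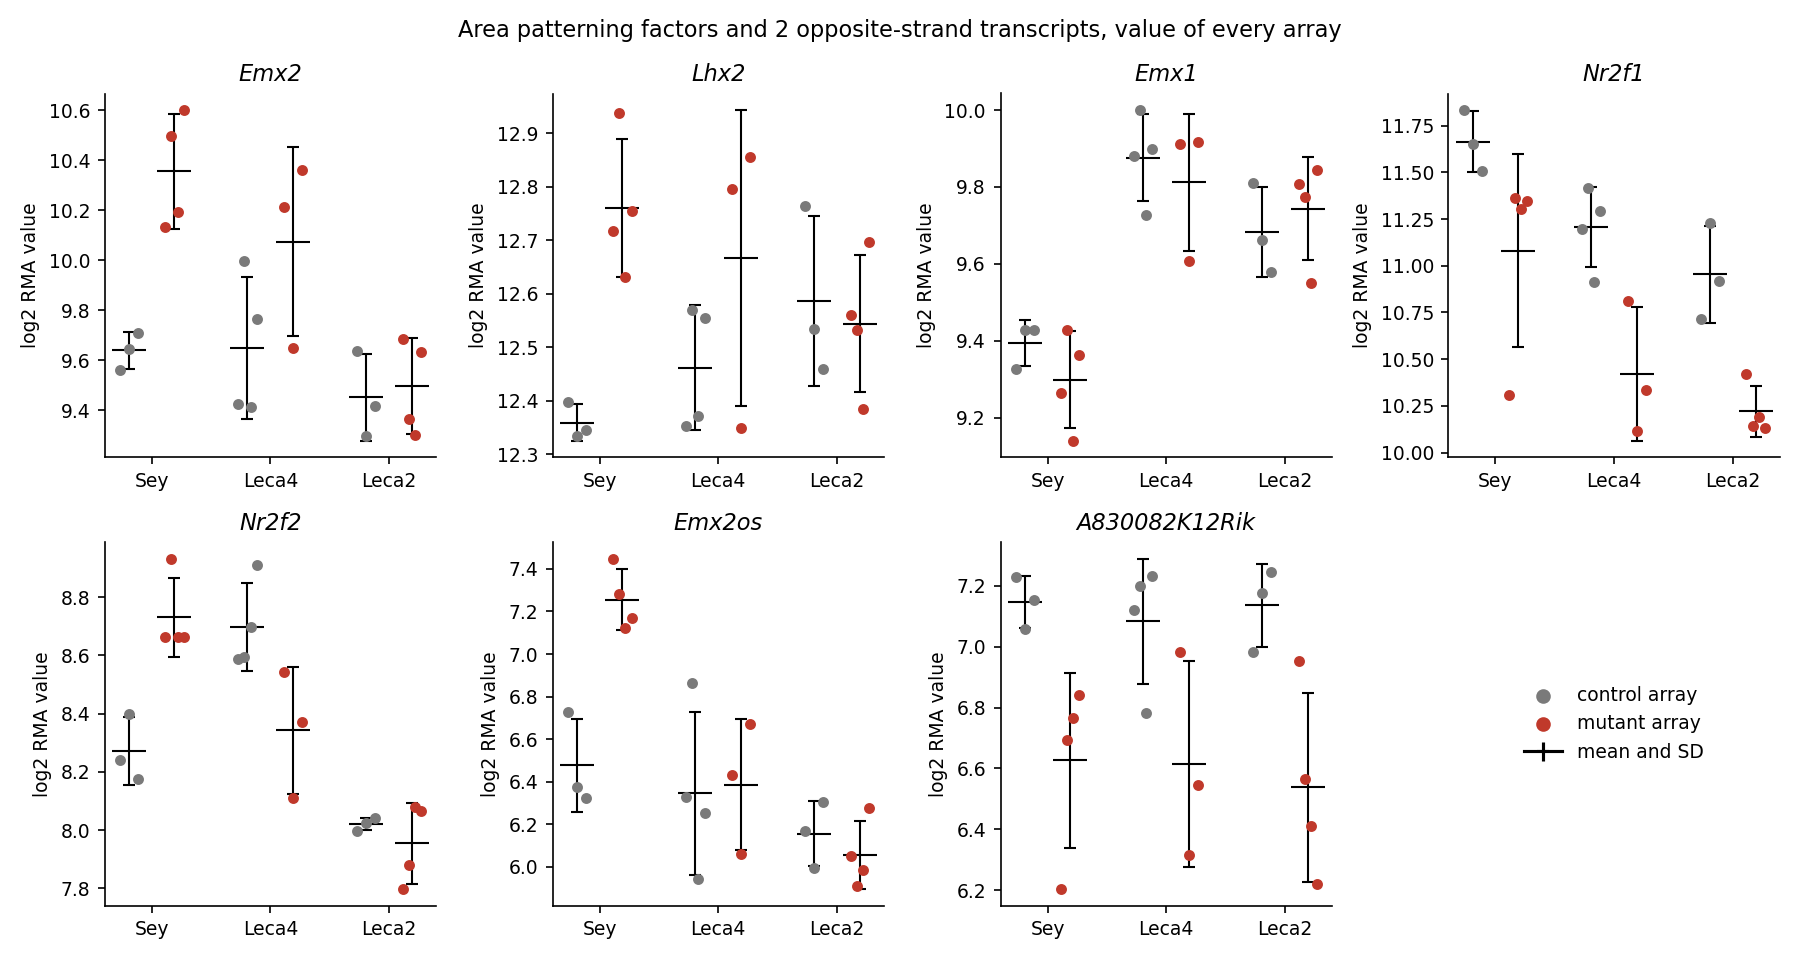
Log2 RMA value of every array (points) for the representative probe set of each factor and of the 2 opposite-strand transcripts, in controls (grey) and mutants (red) of the Sey, Leca4 and Leca2 lines; bars give mean and SD, and vertical axes differ between genes and do not start at 0. Nr2f1 was lower in all mutant arrays than in all control arrays of the same line in each of the 3 lines, whereas Emx2 separated fully in Sey only. Of all genes, 31% were separated in Sey, 15.3% in Leca4 and 6.6% in Leca2, in either direction.

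Emx2, a homeodomain factor of caudomedial progenitors (chr19:59458690-59465357), rose 1.64-fold in Sey mutants. The Sey mutants read 10.13, 10.50, 10.19 and 10.60 (mean 10.35 ± 0.23, SD, n = 4) and their controls 9.56, 9.65 and 9.71 (9.64 ± 0.07, n = 3). All 4 mutants lay above all controls, and 31% of all genes were likewise separated in Sey, in either direction. The change was 0.72 ± 0.17 (SE; 95% interval 0.36 to 1.07; limma adjusted p = 0.00438). The male mutant, 10.50, stood above the 3 male controls, and with a term for sex the change was 0.61 (adjusted p = 0.0384; range over the alternatives 0.000324 to 0.0666).

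In Leca4 the Emx2 values were 10.21, 9.65 and 10.36 in mutants (10.07 ± 0.38, n = 3) and 9.42, 9.997, 9.41 and 9.76 in controls (9.65 ± 0.28, n = 4). Replicates 1 and 3 of the mutants lay above all controls, and replicate 2 lay among them. The change of 0.42 ± 0.17 (95% interval 0.07 to 0.78) was not called (adjusted p = 0.173). It was called without mutant replicate 2, at 0.64 (adjusted p = 0.0263), and with array weights, at 0.53 (adjusted p = 0.0454; range over the alternatives 0.0263 to 0.481). That array was also the lowest of its group in Emx1, Nr2f1, Nr2f2 and Lhx2.

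In Leca2 the Emx2 values overlapped throughout: 9.69, 9.37, 9.30 and 9.63 in mutants (9.50 ± 0.19, n = 4) and 9.64, 9.30 and 9.42 in controls (9.45 ± 0.17, n = 3). The change was 0.05 ± 0.17, with a 95% interval of -0.31 to 0.40. The differences between lines were not called: 0.29 ± 0.24 for Sey minus Leca4 (adjusted p = 0.471), 0.67 ± 0.24 for Sey minus Leca2 (adjusted p = 0.105) and 0.38 ± 0.24 for Leca4 minus Leca2 (adjusted p = 0.509). A fit of only the groups compared called the second of them at an adjusted p of 0.0404, and array weights at 0.0378 (range over the alternatives 0.0378 to 0.478).

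Emx2os, the RNA made from the other strand beside Emx2 (chr19:59425104-59458635), rose 1.72-fold in Sey mutants. Mutants read 7.45, 7.28, 7.12 and 7.17 (7.26 ± 0.14, n = 4) and controls 6.73, 6.38 and 6.33 (6.48 ± 0.22, n = 3). The groups did not overlap, and the change was 0.78 ± 0.17 (adjusted p = 0.00276). In Leca4 the mutants read 6.43, 6.06 and 6.67 and the controls 6.33, 6.86, 5.94 and 6.25, fully overlapping, with a change of 0.04 ± 0.17 (95% interval -0.32 to 0.40). In Leca2 the change was -0.10 ± 0.17, mutants running from 5.91 to 6.28 and controls from 5.996 to 6.30. The Sey change exceeded the Leca2 change by 0.88 ± 0.24 (adjusted p = 0.0354), and the Leca4 change by 0.74 ± 0.24 (adjusted p = 0.0532). With a term for sex the first of these was 0.51 and was not called (adjusted p = 0.388; range over the alternatives 0.00584 to 0.388). That call was also lost without Sey mutant 1 or 2, Sey control 2 or 3, Leca2 mutant 2 or 3, or Leca2 control 1 or 3, at 0.80 to 0.87. The second was called with a stricter filter, with a trend and robust variance and with quantile normalisation, and without Sey control 1, Leca4 mutant 3 or Leca4 control 3, at 0.74 to 0.88 (range of adjusted p 0.0174 to 0.16).

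Lhx2, a LIM-homeodomain factor that maintains cortical fate (chr2:38339271-38369737), rose 1.32-fold in Sey mutants. Mutants read 12.72, 12.94, 12.63 and 12.76 (12.76 ± 0.13, n = 4) and controls 12.40, 12.34 and 12.35 (12.36 ± 0.03, n = 3). All mutants were above all controls, by a change of 0.40 ± 0.11 (95% interval 0.17 to 0.63; adjusted p = 0.0126). The call was lost with a term for sex, at 0.37 (adjusted p = 0.0601; range over the alternatives 0.0022 to 0.0643), although the male mutant, 12.94, stood above the 3 male controls.

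The Lhx2 values in Leca4 were 12.80, 12.35 and 12.86 in mutants (12.67 ± 0.28, n = 3) and 12.35, 12.57, 12.37 and 12.56 in controls (12.46 ± 0.12, n = 4). As for Emx2, replicates 1 and 3 were above all controls and replicate 2 was not, being the lowest of the 7 arrays. The change of 0.21 ± 0.11 was not called (adjusted p = 0.34). Without mutant replicate 2 it was 0.36 and was called (adjusted p = 0.0366; range over the alternatives 0.0366 to 0.722). In Leca2, mutants ran from 12.39 to 12.70 and controls from 12.46 to 12.76, a change of -0.04 ± 0.11 (95% interval -0.27 to 0.19). The Sey and Leca2 changes differed by 0.44 ± 0.15, which was not called (adjusted p = 0.0992) but was without Leca4 mutant 2 (adjusted p = 0.034; range over the alternatives 0.034 to 0.361).

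Emx1, the paralogue of Emx2 that is made throughout the cortical progenitor layer (chr6:85187931-85204463), was not called in any mutant. The Sey mutants read 9.26, 9.43, 9.14 and 9.36 and their controls 9.33, 9.43 and 9.43, a change of -0.10 ± 0.09 (95% interval -0.29 to 0.10). In Leca4 the mutants ran from 9.61 to 9.92 and the controls averaged 9.88 ± 0.11 (SD, n = 4), a change of -0.06 ± 0.09. In Leca2 the mutants ran from 9.55 to 9.85 and the controls from 9.58 to 9.81, a change of 0.06 ± 0.09 (95% interval -0.13 to 0.25). Mutant and control arrays overlapped in every line. Its second probe set gave -0.13 ± 0.17, -0.34 ± 0.17 and -0.19 ± 0.17 in Sey, Leca4 and Leca2 in a fit of 29474 probe sets that called 14.6%, 3.77% and 0.373% of them, and none of these was called.

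Nr2f1, an orphan nuclear receptor high in caudal cortex (chr13:78188971-78198873, minus strand), had its 11 mutant arrays below all control arrays of their line. Of all genes, 31% were likewise separated in Sey, 15.3% in Leca4 and 6.6% in Leca2, in either direction. The share separated in all 3 lines was not counted. In Sey the mutants read 10.31, 11.36, 11.31 and 11.35 (11.08 ± 0.51, n = 4) and the controls 11.83, 11.65 and 11.51 (11.66 ± 0.16, n = 3). Mutant replicate 1 lay 0.996 below the nearest other mutant, and the other 3 mutants were just under the lowest control. The change of -0.58 ± 0.21 (95% interval -1.03 to -0.13) was not called (adjusted p = 0.0629). Without mutant replicate 1 it was -0.33 (adjusted p = 0.18), and without mutant replicate 2 it was -0.68 and was called (adjusted p = 0.0455). Array weights also called it, at -0.49 (adjusted p = 0.041; range over the alternatives 0.041 to 0.206).

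In Leca4 Nr2f1 fell 1.72-fold. Mutants read 10.81, 10.12 and 10.33 (10.42 ± 0.36, n = 3) and controls 11.20, 11.42, 10.91 and 11.29 (11.21 ± 0.21, n = 4). The highest mutant was just under the lowest control, and 15.3% of all genes were likewise separated in Leca4. The change was -0.79 ± 0.21 (95% interval -1.23 to -0.34; adjusted p = 0.0366). The call was lost in a fit of only the Leca4 arrays (adjusted p = 0.0601), with each probe set on its own (0.0507) and with array weights (0.0519). It was also lost without Leca4 mutant 2 or 3 or Leca4 control 1, 2 or 4, where the change was -0.63, -0.74, -0.79, -0.71 and -0.76 (adjusted p over the alternatives 0.00359 to 0.183).

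In Leca2 Nr2f1 read 10.42, 10.14, 10.19 and 10.13 in mutants (10.22 ± 0.14, n = 4) and 10.72, 11.23 and 10.92 in controls (10.95 ± 0.26, n = 3). The groups did not overlap, as held for 6.6% of all genes in Leca2. The change of -0.73 ± 0.21 (95% interval -1.18 to -0.28) had an unadjusted limma p of 0.00293 and was not called over all genes (adjusted p = 0.224). It was called with array weights (adjusted p = 0.0321) and without Sey mutant 1, which enters this comparison through the shared spread (adjusted p = 0.0304; range over the alternatives 0.0304 to 0.845).

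The 3 changes of Nr2f1 did not differ detectably from each other. Sey minus Leca4 was 0.20 ± 0.30 (95% interval -0.43 to 0.84), Sey minus Leca2 0.15 ± 0.30 (-0.49 to 0.79) and Leca4 minus Leca2 -0.05 ± 0.30 (-0.69 to 0.59), and the intervals leave room for differences as large as the changes themselves. In a contrast added after the data were seen, the mean of the 3 changes, Nr2f1 fell by 0.70 ± 0.12 on the log2 scale (adjusted p = 0.000672; 13.1% of all genes called, 7.78% up and 5.31% down). Leaving out each array in turn, this mean stayed between -0.77 and -0.62. Over these and the other alternatives its adjusted p ran from 0.000122 to 0.02. In the same contrast Emx2 rose by 0.40 ± 0.10 (adjusted p = 0.0094), from changes of 0.72, 0.42 and 0.05 in Sey, Leca4 and Leca2. Of the 5 factors only these 2 were called in it. Lhx2 (0.19, limma adjusted p = 0.056), Nr2f2 (0.01, 0.925) and Emx1 (-0.03, 0.769) were not, nor was Emx2os (0.24, 0.131).

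A830082K12Rik, a long non-coding RNA gene on the plus strand (chr13:78198017-78236564), overlaps the 5′ end of Nr2f1 by 857 bases. In Sey its mutants read 6.20, 6.70, 6.77 and 6.84 (6.63 ± 0.29, n = 4) and its controls 7.23, 7.06 and 7.16 (7.15 ± 0.09, n = 3). All mutants were below all controls, and the same mutant replicate 1 was the lowest. The change of -0.52 ± 0.18 was called (adjusted p = 0.0425), but not without that replicate, at -0.38 (adjusted p = 0.136), or with a term for sex, at -0.41 (0.201; range over the alternatives 0.0255 to 0.201). It was lost too with no filter (adjusted p = 0.0527), with every probe set on its own (0.058) and under the replicate block (-0.59, 0.0672). The mean of its 4 probe sets gave a smaller change that was called, -0.31 (adjusted p = 0.0341). The call was also lost without Sey mutant 2, any Sey control, Leca2 mutant 2, Leca2 control 2 or Leca4 control 1.

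In Leca4 A830082K12Rik read 6.98, 6.32 and 6.54 in mutants and 7.12, 7.20, 6.78 and 7.23 in controls. Mutant replicate 1 lay above the lowest control, and the change of -0.47 ± 0.18 was not called (adjusted p = 0.146). In Leca2 it read 6.95, 6.56, 6.41 and 6.22 in mutants and 6.98, 7.18 and 7.25 in controls, a change of -0.60 ± 0.18 that was not called (adjusted p = 0.23) although the groups did not overlap. The mean of its 4 probe sets was called in both lines, at -0.38 in Leca4 (adjusted p = 0.0266; range over the alternatives 0.0266 to 0.413) and -0.47 in Leca2 (adjusted p = 0.0286; range 0.0286 to 0.693). The mean of its 3 changes, added after the data were seen, was -0.53 ± 0.10 (adjusted p = 0.00144). Its 4 probe sets were lower in the mutants of all 3 lines, from -0.10 to -0.70, with 1442600_at called in Sey (adjusted p = 0.0444) and 1419990_at in Leca4 (adjusted p = 0.0123). The direction in which the probes of either gene read the overlapping stretch is not given in the sources used here, so whether a probe set of one gene also reads RNA of the other was not tested.

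Nr2f2, the second COUP factor (chr7:70351946-70366746), was called up in Sey and, by a call that most alternative settings lost, down in Leca4. In Sey the mutants read 8.67, 8.93, 8.66 and 8.66 (8.73 ± 0.13, n = 4) and the controls 8.24, 8.40 and 8.17 (8.27 ± 0.12, n = 3). All mutants were above all controls, with 3 of them nearly equal and the male replicate 2 the highest. Nr2f2 rose 1.37-fold, by 0.46 ± 0.10 (95% interval 0.24 to 0.68; adjusted p = 0.00311), and stayed called in all 11 alternative settings of the fit and without each array in turn. A call rule that also asks for a 1.4-fold change leaves it out.

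In Leca4 the Nr2f2 mutants read 8.54, 8.11 and 8.37 (8.34 ± 0.22, n = 3) and the controls 8.59, 8.60, 8.70 and 8.91 (8.70 ± 0.15, n = 4). All mutants were below all controls, the highest by a narrow margin. The change of -0.35 ± 0.10 was called at an adjusted p of 0.0499, and the call was lost in 9 of 11 alternative settings (range of adjusted p 0.0238 to 0.231). Among the 21 fits without 1 array it was kept in 4, those without Sey mutant 2, Leca2 mutant 1, Leca4 mutant 1 or Leca4 control 2. The change ran from -0.46 to -0.24 over these fits, and was -0.24 without Leca4 mutant 2. The mean of the kept Nr2f2 probe sets gave -0.20 (adjusted p = 0.208). In Leca2 the mutants ran from 7.80 to 8.08 around controls of 7.998 to 8.04, a change of -0.07 ± 0.10 (95% interval -0.28 to 0.15).

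The Sey and Leca4 changes of Nr2f2 differed by 0.81 ± 0.15 (adjusted p = 0.000961), where 12.8% of all genes were called in that difference. This was called in every alternative and without each array in turn (0.58 to 0.91). The Sey and Leca2 changes differed by 0.53 ± 0.15 (adjusted p = 0.0356; 6.69% of genes called). That call was lost with each probe set on its own (0.0505) and with a term for sex (0.149). It was also lost without Sey mutant 2, Sey control 1 or 3, Leca2 mutant 1 or 2, or any Leca2 control, at 0.46 to 0.54 (range of adjusted p 0.0124 to 0.149). The Leca4 and Leca2 changes differed by -0.29 ± 0.15, which was not called (adjusted p = 0.374; 2.38% of genes called). No other factor differed between lines at an adjusted p under 0.05. The differences of Sey from Leca4 and Leca2 hold both allele and strain, which cannot be told apart.

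The other probe sets of Nr2f2 were dimmer. Of those, 1416158_at gave 0.47 ± 0.10 in Sey (called, adjusted p = 0.00426), -0.22 ± 0.10 in Leca4 and -0.19 ± 0.10 in Leca2, and 1416160_at gave 0.47 ± 0.16, -0.19 ± 0.16 and -0.11 ± 0.16, none called. Both lay near the filter level. The probe set 1436475_at gave 0.13 ± 0.08, -0.05 ± 0.08 and 0.03 ± 0.08, none called. The remaining 2, 1431237_at at 4.65 to 5.57 and 1444229_at at 3.46 to 4.16, were above the level on no array and were not tested. Probe sets of 1 gene read the same RNA samples and are not replicates.

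**Figure D2:**
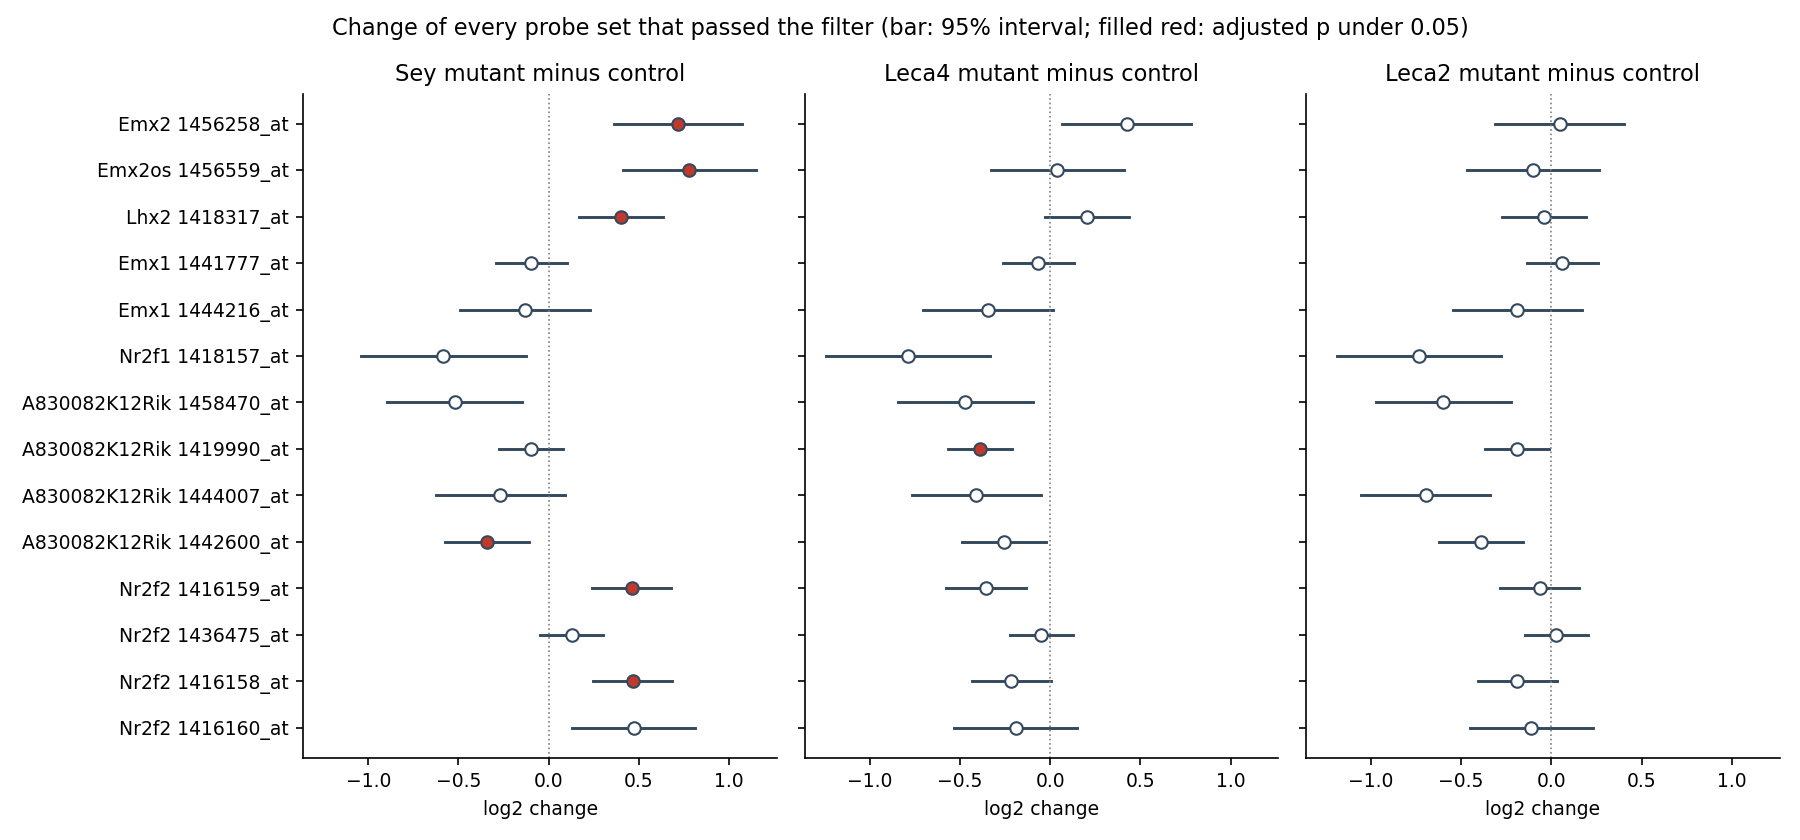
Log2 change, mutant minus control, of every kept probe set of the 5 factors and of the 2 opposite-strand transcripts in each line; points are estimates, bars 95% intervals, and filled red points have a limma adjusted p under 0.05 over 29474 probe sets. Emx2, Emx2os, Lhx2 and 2 Nr2f2 probe sets are filled to the right in Sey, and every Nr2f1 and A830082K12Rik point lies left of 0.

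Markers of other cell types differed between Sey mutants and controls beside these changes. Beside the marker counts here and below, 20.2% of all genes were called in Sey, 5.62% in Leca4 and 0.477% in Leca2. Of 11 ventral telencephalic markers 8 rose (Dlx5 by 3.76 and Gsx2 by 3.15), and their mean level was 8.82 to 9.24 in mutants against 6.55 to 6.86 in controls. Of 7 tested markers of the caudal ganglionic eminence, where Nr2f1 and Nr2f2 are also made, 4 rose (Prox1 by 2.28), the mean level of the list being 7.45 to 7.51 against 6.55 to 6.79, with Vip above the level on no array. Of 9 Cajal-Retzius markers 7 rose, at 8.40 to 8.70 against 7.74 to 7.86. Of 7 projection neuron markers 6 fell (Slc17a6 by 1.18), at 10.37 to 10.59 against 11.07 to 11.13. Of 6 intermediate progenitor markers, genes of the basal cells that come from radial glia, 2 rose (Gadd45g, 0.90) and 3 fell (Neurog1, -2.67, Eomes, -1.64, and Neurog2, -1.61), at 9.92 to 10.18 against 10.81 to 10.84. Their part in the changes of Emx2, Lhx2 and Nr2f2 in Sey was not tested. In bulk tissue, fewer cells of a type and less RNA per cell cannot be told apart.

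Radial glia markers, the class that includes the progenitors making the area factors, gave 4 up, Pax6 among them, and 1 down of 10 in Sey. Their mean level was 10.65 to 10.84 in Sey mutants against 10.59 to 10.70 in controls, so that the groups overlapped. Nr2f2 is also made in vessels and meninges: 1 of 9 endothelial markers rose in Sey (6.94 to 7.13 against 6.91 to 6.999) and 3 of 7 tested meningeal markers rose (6.04 to 6.18 against 5.66 to 5.81, with Foxc2 and Twist1 above the level on no array). Of 4 tested diencephalic markers 2 rose and 1 fell in Sey, with Irx1 and Irx2 above the level on no array. None of 6 tested markers of hem and choroid plexus was called in any mutant by limma, or had an unadjusted p under 0.05, and Lmx1a, Wnt2b and Kl were above the level on no array.

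In Leca4 and Leca2, where Nr2f1 was lower, the ventral telencephalic, caudal ganglionic eminence and Cajal-Retzius lists had 0 genes called by limma, and 2, 1 and 0 in Leca4 and 3, 0 and 1 in Leca2 had an unadjusted p under 0.05. The mean level of the ventral list was 7.11 to 7.54 in Leca4 mutants against 7.31 to 7.89, and 6.56 to 7.72 in Leca2 mutants against 6.60 to 6.94. Radial glia markers gave 1 up (Pax6) and 1 down (Slc1a3) of 10 in Leca4, at 11.05 to 11.24 against 11.02 to 11.24. In Leca2 they gave 1 up (Pax6) of 10, at 11.02 to 11.27 against 11.06 to 11.23. Of 6 intermediate progenitor markers, 1 was called in each of these lines, the neurogenic factor Neurog1: it rose by 1.34 in Leca4 and fell by 1.43 in Leca2. The mean level of that list was 11.18 to 11.46 in Leca4 mutants against 11.06 to 11.23 in controls, which overlap, and 10.61 to 10.90 in Leca2 mutants against 11.06 to 11.20, which do not. In Leca4 3 of 7 microglial markers rose, at 7.78 to 7.95 against 7.47 to 7.62. Of 7 tested meningeal markers 2 rose in Leca4 (Crabp2 by 1.17 and Prrx1 by 0.95), while Col1a2 (-0.42) and Col3a1 (-0.23) were lower and not called. The median change of the tested meningeal markers was -0.23, and the mean level of the list was 6.22 to 6.28 against 6.08 to 6.33. The part of these lists in the Leca4 changes of Nr2f1 and Nr2f2 and in the Leca2 values of Nr2f1 was not tested.

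The 3′ minus the 5′ log2 value of control transcripts, a measure of RNA quality and amplification, also moved in the lines with the PAI and RED mutations. For Gapdh it was -0.052 to 0.001 in Leca2 mutants against -0.088 to -0.057 in controls, without overlap, and -0.085 to 0.014 in Leca4 mutants against -0.115 to -0.084, the highest control lying just above the lowest mutant. For beta-actin it was 0.433 to 0.501 in Leca4 mutants against 0.38 to 0.444, and 0.45 to 0.524 in Leca2 mutants against 0.418 to 0.483, overlapping in both. In Sey the ranges overlapped, at -0.175 to -0.128 against -0.162 to -0.127 for Gapdh and 0.274 to 0.336 against 0.30 to 0.322 for beta-actin. The part of this in the changes of Nr2f1 and Nr2f2 in Leca4, and of Nr2f1 in Leca2, was not tested.

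Some of the factors also varied together from embryo to embryo within groups. Deviations of the 21 arrays from the mean of their own group were correlated for the 21 pairs among the 5 factors and 2 opposite-strand transcripts, with arrays permuted within groups and p adjusted over the pairs. Emx1 and Lhx2 had Pearson r = 0.88 (permutation adjusted p = 0.00154) and Spearman rho = 0.89 (adjusted p = 0.00168), and r = 0.83 without the 2 arrays farthest from the median. Emx1 and Emx2 had r = 0.84 (adjusted p = 0.00154), rho = 0.87 (adjusted p = 0.00168) and r = 0.79 without 2 arrays. Emx2 and Lhx2 had r = 0.83 (adjusted p = 0.0064), rho = 0.82 (adjusted p = 0.00352) and r = 0.78 without 2 arrays.

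Emx1, Emx2 and Lhx2 were thus high or low in the same embryos, including Leca4 mutant 2, while Emx1 was not called in any mutant. Nr2f1 and A830082K12Rik formed the other correlated pair, with r = 0.83 (permutation adjusted p = 0.00154), rho = 0.82 (adjusted p = 0.00352) and r = 0.76 without 2 arrays. Emx2 and Emx2os, whose genes lie 54 bases apart, had r = 0.58 (adjusted p = 0.151) and r = 0.35 without 2 arrays. The other pairs, among them Nr2f1 with Nr2f2 (r = 0.29, adjusted p = 0.509), did not pass either. Values of an array share its RNA, dissection and normalisation, and the part of these in the correlations was not tested.

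**Figure D3:**
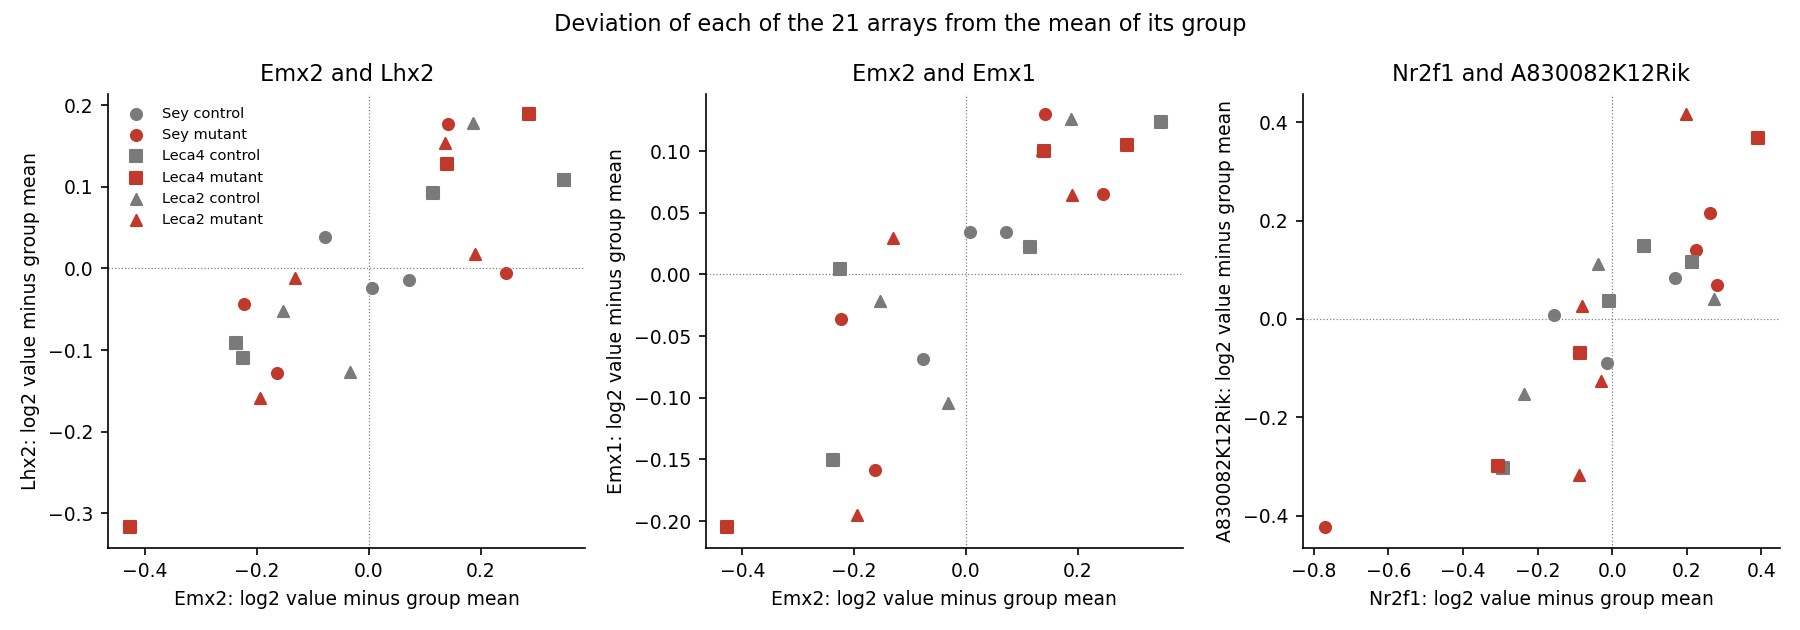
Each point is 1 of 21 arrays, plotted as the log2 value minus the mean of its group for Emx2 against Lhx2, Emx2 against Emx1 and Nr2f1 against A830082K12Rik; shapes give the line and colours controls and mutants. The 3 pairs lie along rising diagonals (r = 0.83, 0.84 and 0.83), with Leca4 mutant 2 at the lower left for the first 2 pairs and Sey mutant 1 for the third.

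Over all tested genes, the one most like Nr2f1 across the 21 arrays, once the mean of each line was taken off, was A830082K12Rik (r = 0.93). It was followed by Dbi, the acyl-CoA binding protein (0.84), and Fabp7, the fatty acid binding protein of radial glia (0.80). Emx2 was most like Zfp36l1, an RNA-binding protein (0.97), Gja1, the gap junction protein connexin 43 (0.94) and Ptgr1, a prostaglandin reductase (0.93). The changes of Gja1 were 0.71, 0.23 and 0.13 in Sey, Leca4 and Leca2, and those of Zfp36l1 0.47, 0.23 and 0.02.

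Lhx2 was most like Elavl1, an RNA-binding protein (0.94), Tcf3, a bHLH E-protein (0.93), and Limd1 (0.92). Nr2f2 was most like Ccar1 (0.89), Trp73, a p53 relative of Cajal-Retzius cells (0.85), and Senp1, a SUMO protease (0.84). Ccar1, Trp73 and Senp1, picked because they follow Nr2f2, all had its signs, positive in Sey and negative in Leca4. Their changes were 0.09, 0.46 and 0.33 in Sey and -0.11, -0.28 and -0.10 in Leca4. The Leca4 change of Trp73 was not called (limma adjusted p = 0.307). Emx1 was most like Tmem238 (0.84), Ifitm2 (0.80) and Ccdc102a (0.77). These correlations hold both the mutant effect and the variation between embryos and are a description.

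Among the immediate chromosomal neighbours tested, Sfxn5, a mitochondrial carrier gene next to Emx1, rose by 0.41 ± 0.08 in Leca4 (adjusted p = 0.00536), where Emx1 read -0.06. Emx2os and A830082K12Rik were the other neighbours tested.

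Other genes of area patterning were read from lists written from general knowledge, but chosen with earlier results of these data known. The list counts here and below stand beside 20.2% of all genes called in Sey, 5.62% in Leca4 and 0.477% in Leca2. Of 13 further progenitor factors, 3 rose and 2 fell in Sey, 1 rose and 1 fell in Leca4 and 1 rose in Leca2. Sp8, a zinc finger factor of rostromedial progenitors that is also made in ventral telencephalon, rose by 2.88 ± 0.24 in Sey. Dmrta1, a doublesex-related factor with a cortical gradient, changed by -3.66 ± 0.28 in Sey and by -2.14 ± 0.28 in Leca4, and Tfap2c fell by 1.46 ± 0.14 in Sey. Pax6, the mutated gene itself, is in this list. It was among the risers in Sey and was the only riser in Leca4 and in Leca2.

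Of 12 tested genes of Fgf signalling, whose rostral source opposes Emx2 and Nr2f1, 4 fell and none rose in Sey. None was called in Leca4 or Leca2. The tested ligands Fgf17 (-0.08 ± 0.20), Fgf18 (-0.46 ± 0.16) and Fgf15 (0.66 ± 0.46) were not called in Sey, and Fgf8 was not among the genes tested. The target factor Etv5 fell by 0.70 ± 0.08, the receptors Fgfr1 and Fgfr2 changed by -0.51 ± 0.08 and -0.33 ± 0.08, and the feedback inhibitor Spry2 fell by 0.38 ± 0.07. Of 12 tested genes of Wnt and Bmp signalling, whose caudomedial source is the hem, 3 rose and 2 fell in Sey. Wnt5a rose by 1.21 ± 0.19 and the Wnt target Axin2 by 0.48 ± 0.12, while Wnt7b and the Wnt enhancer Rspo3 changed by -0.72 ± 0.11 and -0.92 ± 0.09. Wnt3a (0.28 ± 0.14) and Wnt8b (1.57 ± 0.76), which are also in the list of hem and choroid plexus, were not called in Sey. In Leca4 2 of these 12 Wnt and Bmp genes rose, Wnt5a by 0.93 ± 0.19 and Bmp7 by 0.63 ± 0.13, and in Leca2 none was called. Of 7 antihem genes, the lateral signalling source, 4 fell in Sey (Nrg3 by 1.08 ± 0.16), 1 rose in Leca4 (Dbx1 by 2.52 ± 0.29) and 1 fell in Leca2 (Fgf7 by 0.52 ± 0.10).

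Regulators that act in neurons downstream of the gradients gave 2 up and 7 down of 12 in Sey. Cux2 changed by -1.31 ± 0.15 in Sey and by -0.57 ± 0.15 in Leca4, and Lmo4, a LIM-only cofactor, rose by 0.52 ± 0.08 and 0.50 ± 0.08. These 2 were the called members in Leca4, and none was called in Leca2. The graded adhesion and guidance list of 17 genes also held Crym, Cyp26b1, Odc1 and Lypd6. Of these 17 genes, 2 rose and 10 fell in Sey, 1 rose and 5 fell in Leca4 and none was called in Leca2. The cadherin Cdh8 changed by -1.56 ± 0.12 in Sey and by -1.20 ± 0.12 in Leca4, Lypd6 by -1.62 ± 0.10 and -0.77 ± 0.10, and the netrin receptor Unc5d by -2.34 ± 0.16 in Sey. Crym, a thyroid hormone binding protein, rose by 1.02 ± 0.23 in Leca4.

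Partners and relatives of the members were read too. Of 12 nuclear receptor relatives and cofactors of Nr2f1 and Nr2f2, 1 rose and 2 fell in Sey, 2 rose in Leca4 and none was called in Leca2. The count in Sey was near the 20.2% of all genes called there. Nr2e1 (Tlx), a receptor of progenitors, fell by 0.49 ± 0.12 in Sey, and the Nr2f2 cofactors of the Fog family, Zfpm2 and Zfpm1, rose by 0.63 ± 0.09 and 0.52 ± 0.09 in Leca4. Of 18 LIM factors and cofactors, relatives and partners of Lhx2, 5 rose and 2 fell in Sey, 1 rose and 1 fell in Leca4, and none was called in Leca2. Lhx5 rose by 1.15 ± 0.13 in Sey, and the LIM-binding cofactor Ldb2 fell by 1.43 ± 0.21. In Leca2 limma called none of the genes of 6 of these lists. Those with an unadjusted p under 0.05 were 2 of 12 Fgf genes, 4 of 12 Wnt and Bmp genes and 0 of 12 neuronal regulators. In the adhesion and guidance list it was 3 of 17. Among the Nr2f relatives it was 1 of 12 and among the LIM genes 3 of 18. In Leca4 1 of 12 Fgf genes had an unadjusted p under 0.05. The median changes in Sey were 0.18 for the progenitor factors, -0.08 for the Fgf genes, 0.19 for the Wnt and Bmp genes and -0.42 for the antihem genes. They were -0.28 for the neuronal regulators, -0.45 for the adhesion and guidance list, 0.03 for the Nr2f relatives and 0.07 for the LIM genes, beside -0.00025 over all genes.

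**Figure D4:**
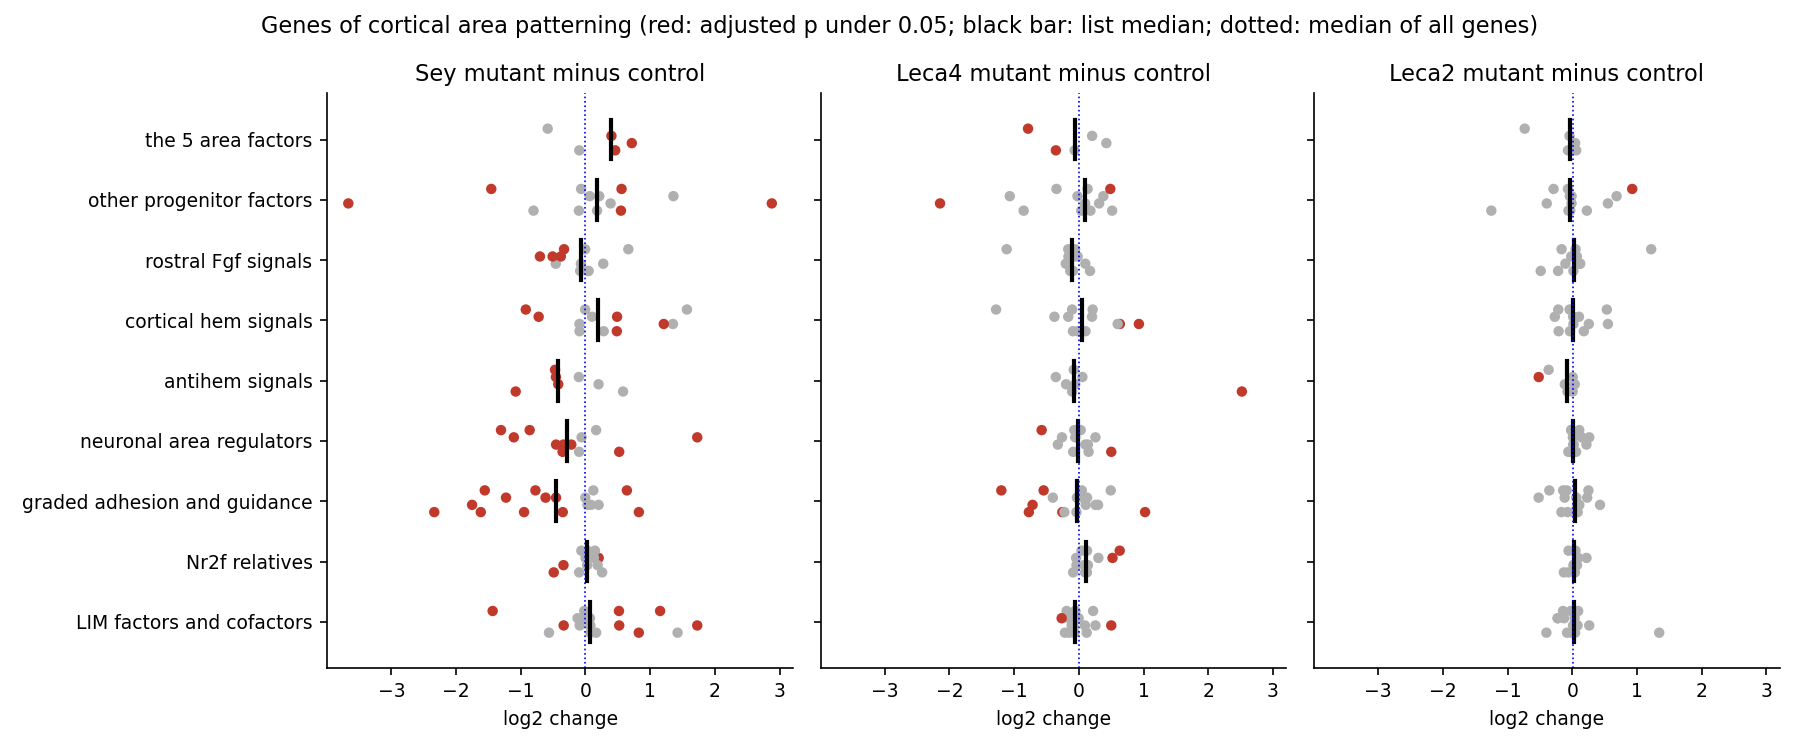
Log2 change, mutant minus control, of each tested gene (points) of the 5 area factors and of the lists of area patterning genes in each line; red points have a limma adjusted p under 0.05, black bars are list medians and the dotted line is the median of all genes. The lists spread widely in Sey and narrowly in Leca2, and the graded adhesion and guidance list has 10 of 17 points called down in Sey.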

How the data were processed

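RNA of 21 embryonic cortices was measured on Affymetrix arrays. Per the labels' protocols, extraction used RNeasy Micro with DNase, amplification MessageAmp Premier, and the label was biotin. The deposited values are log2 expression per probe set made with RMA, per the submitters' processing notes. The RMA version is not given in the sources used here, nor is the genome build. Names came from the platform annotation and positions from RefSeq's gene table of GRCm38.p6.

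Of 34945 probe sets naming 1 gene, 25140 lay above the 40th percentile of an array (log2 5.37 to 5.60) on at least 3 arrays. Where several probe sets of a gene passed, the one with the highest mean stood for it. All 6 groups entered 1 linear model over the resulting 13850 genes (R 4.3.3; limma 3.58.1 with lmFit and eBayes), which had 15 residual and 3.54 prior degrees of freedom. The contrasts were each mutant group minus its littermate controls and the differences between those changes. P-values are two-sided and adjusted by Benjamini-Hochberg over all genes, and a gene was called under 0.05. Intervals are 95%, and errors after a change are standard errors. The number of arrays limits precision. The scripts were tested on simulated data. Permutations numbered 1e+05.

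The members and lists were chosen with earlier results of these data known. Named genes were the members, their chromosomal neighbours and opposite-strand transcripts, up to 4 genes with the smallest p per list and comparison, and the 3 genes most like each member. Alternatives were a fit restricted to the line or lines in question, a replicate block, other filters and summaries of probe sets, a trended robust variance, array weights, quantile normalisation, centring, a term for sex, other thresholds and leaving out each array.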

Additional observations from a re-analysis of the deposited data

Results flagged for a closer look

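Nr2f1 in Sey mutant 1 was 10.31, far below the other Sey mutants: its gap to the nearest was 0.945 of the group's range. Nr2f2 in Sey mutant 2 was 8.93, far above the other Sey mutants, which were nearly equal, with a gap of 0.989 of the range. These were 2 of 33 groups of 4 arrays examined over 11 probe sets, and chance alone sets apart about 1 in 20 such groups.

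The change of Nr2f2 differed between Sey and Leca4 by 0.81 and between Sey and Leca2 by 0.53, and that of Emx2os between Sey and Leca2 by 0.88. Each was past the threshold in a test of the difference itself (limma, adjusted over all genes). The differences from Leca2 were not called with a term for sex (limma adjusted p = 0.149 for Nr2f2 and 0.388 for Emx2os) or without some single arrays. Sey was on another strain than Leca4 and Leca2, so allele and strain cannot be told apart in these differences.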

How the results depend on the processing

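In Sey 3 of the 5 factors were called in most settings, with 1 under the replicate block and 1, Emx2, with a change of at least 1.4-fold, where 1057 genes were called. The number ran from 1 to 4 over all settings, and the call of Lhx2 was lost with the term for sex. In Leca4 2 were called, and 0 with only the groups compared, under the replicate block and with every probe set on its own. The number was 1, Nr2f1, with no filter, the mean of probe sets, quantile normalisation, centring, the term for sex and 1.4-fold, and 1 with array weights, where it was the rise of Emx2 (0.53, adjusted p = 0.0454). It was 0 to 2 without 1 array. All genes called in Leca4 numbered 400 with only the groups compared, 450 under the block, 330 at 1.4-fold and 512 to 793 without 1 array. In Leca2 none of the factors was called except 1 with array weights and 0 to 1 without 1 array. All genes called in Leca2 were 27 with only the groups compared, 28 under the block, 121 with array weights and 40 to 82 without 1 array.

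The labels do not say that replicate numbers mark litters, and same-numbered arrays did not deviate together in every pair (correlations from -0.44 to 0.34). Under the replicate block Emx2 in Sey (0.63, adjusted p = 0.0666), Lhx2 in Sey (0.40, 0.0643), A830082K12Rik in Sey (-0.59, 0.0672), Nr2f1 in Leca4 (-0.76, 0.183), Nr2f2 in Leca4 (-0.28, 0.12), the Emx2os difference of Sey and Leca2 (0.98, 0.114) and the mean change of Emx2 (0.37, 0.0956) were not called. Arrays with no partner of their number add nothing to that fit.

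Small, uncalled values changed sign. With the mean of probe sets Emx1 was -0.063 in Leca2 and 0.091 for Sey minus Leca4. With the term for sex Emx2os was 0.045 in Leca2 and -0.029 for Leca4 minus Leca2. With array weights Nr2f1 was 0.20 for Leca4 minus Leca2. Leaving out 1 array, Emx1 ran from -0.12 to 0.038 in Leca4 and from -0.13 to 0.022 for Sey minus Leca4, Emx2os from -0.10 to 0.21 in Leca4, Emx2 from -0.032 to 0.14 and Lhx2 from -0.11 to 0.047 in Leca2, and Nr2f1 from -0.25 to 0.10 for Leca4 minus Leca2. The cause was not tested. Groups of 3 or 4 arrays, and Nr2f2 and A830082K12Rik probe sets near the filter level, limit what could be detected.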
